A study of Mus musculus with 4 samples.

Results

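At embryonic day E12.5, 896 of 23188 kept stromal cells of the mouse intestine held transcripts of at least 3 of 6 genes, Adamdec1, Bmp3, Col14a1, Nrg1, Dll1 and Asb4, and none of Upk3b, a mesothelial gene, or of Sox10 and Prph, genes of glia and peripheral neurons. These cells are called Adamdec1 and Bmp3 fibroblasts (FB) here, or members. They were selected on their own unique molecular identifiers (UMIs, each standing for 1 captured RNA molecule) of these 9 genes, so the levels of the 9 genes are described below with no test. The 6 genes had also been seen earlier among the leading genes of a cluster of these same cells. Differences between members and other cells in further genes are thus not independent of the choice of members, and the tests say how steady such differences were from library to library. Within each library the members were compared with 13289 reference cells, which had 0 UMIs of all 9 genes. The other 9003 kept cells belonged to neither group, and 6560 of them had 1 or 2 of the 6 genes and none of the 3 excluded ones.

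The cells came from untreated E12.5 embryos whose fathers were EYFP mice, which carry a yellow fluorescent protein (YFP), and whose mothers were C57BL/6Nrj. Small intestine (SI) and large intestine with the cecum (LI) were dissected, and live Itgb1+ YFP+ cells without CD45, Ter119, CD31 or EpCAM on their surface were sorted, a gate for mesenchymal stromal cells (MSC) that also lets mesothelial and enteric neural cells through. There were 4 droplet libraries, SI replicate 1 and 2 and LI replicate 1 and 2, and the label of every library names 2 independent experiments of 3 to 5 embryos each. No label ties a library to an experiment, and p-values measure the spread between these libraries only. Some sample labels name adult stroma and lamina propria, while the titles and the treatment field name E12.5, which is followed here. The sources name a 3′ and a 5′ kit without saying which library used which, and kit and library cannot be told apart.

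Hedgehog proteins are made by the gut epithelium and are received by the mesenchyme beneath it. Binding of the ligand to the receptor Ptch1 frees Smo, which lets the Gli transcription factors act, and Ptch1, Hhip and Gli1 are themselves induced by the signal, so that their transcripts serve as its read-out. Among the known targets in gut mesenchyme are forkhead factors and Bmp4, whose product restrains growth of the overlying epithelium. In the adult intestine, FB close to the epithelium are rich in PDGFRa and BMP ligands.

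The libraries held 31630548 to 62886525 UMIs in 5151 to 6881 barcodes. LI replicate 1 stood apart, with a median of 4278.5 UMIs in a kept cell against 8518 to 8932 in the other 3, and it gave only 23 members, of which 2 carried UMIs of 3 or more of 10 neural markers. Values are therefore given with and without it where they rest on it. LI replicate 2 held 196 members, SI replicate 1 held 228 and SI replicate 2 held 449. Any pair of libraries shared 8 to 15 cell barcodes, and 0 member barcodes occurred in more than 1 library. The selection favours deep cells, in which more of the 6 genes can be seen. The median UMIs of members were 5005 and 10526 for LI and 11431.5 and 11429 for SI (replicate 1 first), against 4172, 8199, 8459 and 7912 in the reference cells.

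The gene in the name of these cells was not the one that most of them shared. Adamdec1, which encodes a disintegrin-like metalloprotease of gut stroma, was detected in 272 of 896 members (30.4%), and its share was 8.70%, 23.5%, 7.89% and 45.9% of the members, giving LI before SI and replicate 1 before replicate 2, the order kept below. The replicates of 1 region thus differed in Adamdec1 by more than the regions did. Col14a1, a fibril-associated collagen, was detected in 757 members, with shares of 56.5%, 71.4%, 79.8% and 94.0% in the same order. Nrg1, an EGF-family ligand of the ErbB receptors, was found in 643 members and Asb4, a subunit of ubiquitin ligases, in 589. Bmp3, an unusual BMP-family ligand, and the Notch ligand Dll1 were found in 453 and 459 members. The commonest set of genes was Col14a1, Nrg1 and Asb4 in 115 members (12.8%), followed by Col14a1, Nrg1 and Dll1 in 71 (7.92%), and neither of these sets includes Adamdec1 or Bmp3. Of all kept cells without the 3 excluded genes, 16.5% had a UMI of Col14a1, 10.2% of Nrg1, 5.41% of Dll1, 4.13% of Bmp3 and 1.65% of Adamdec1. Detection of a single gene at these depths says that a molecule was captured, and 0 UMIs do not show that a cell lacks the transcript.

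**Figure D1:**
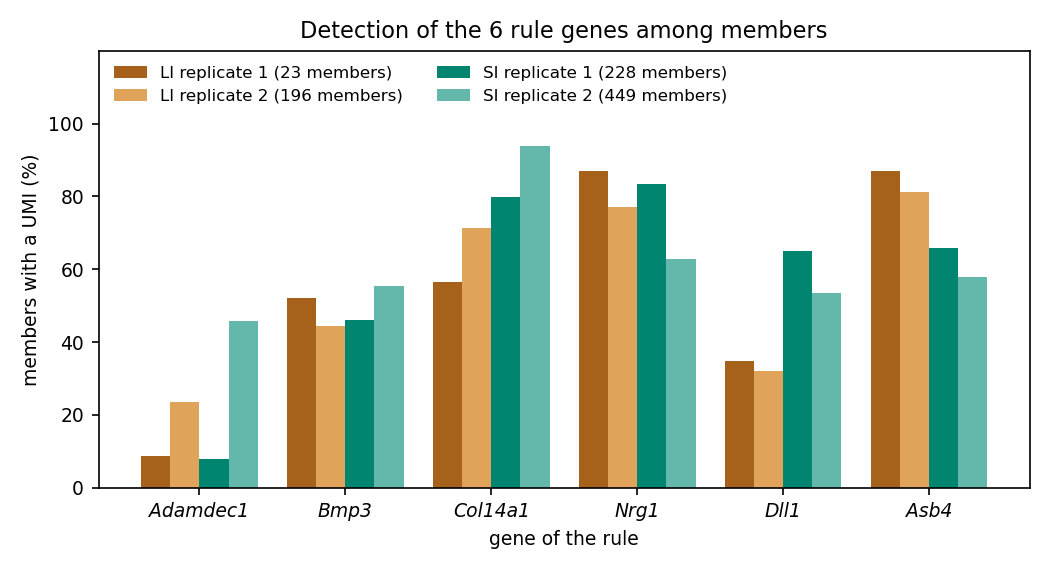
Share of members in which each of the 6 selecting genes had at least 1 UMI (y axis, percent), 1 bar for each library. Col14a1 ran from 56.5% to 94.0% of members, while Adamdec1 ran from 7.89% in SI replicate 1 to 45.9% in SI replicate 2.

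Most members sat at the threshold of the selection: 526 had 3 of the 6 genes, 271 had 4, 83 had 5 and 16 had all 6, while 1395 cells without the excluded genes had 2 and 5165 had 1. The median depth grew with that number, from 7000 UMIs in cells with 0 genes and 9226 with 2 genes to 10520.5 with 3. The levels just outside and just inside that threshold, with 2 and with 3 genes, are given as a description. The mean over the 4 libraries of the Ptch1 level, in UMIs per 1000000 UMIs summed over the cells concerned (CPM), was 174 with 0 of the genes, 218 with 1, 317 with 2, 397 with 3 and 430 with 4 or more, and it stepped up each time in 4 of 4 libraries. Foxl1 went from 1.78 CPM with 0 genes to 15 with 2, 27.5 with 3 and 30.8 with 4 or more. Gas1, a hedgehog co-receptor, ran the other way, from 374 CPM with 0 genes to 192 with 2, 136 with 3 and 111 with 4 or more. Along the same axis Pdgfra ran from 83.4 to 148 CPM, Snai2 from 75.8 to 323, Alcam from 52.3 to 1.69 and the smooth muscle cell (SMC) myosin gene Myh11 from 98.0 to 29.0. Myh11 fell at every step in 0 of 4 libraries, and in LI replicate 2 it stood at 56.9 CPM with 0 genes and 72.7 with 4 or more. These are summed levels of the cells in each class, and for Ptch1 and Gas1 they already differed from those of the cells with 0 genes below the threshold.

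**Figure D2:**
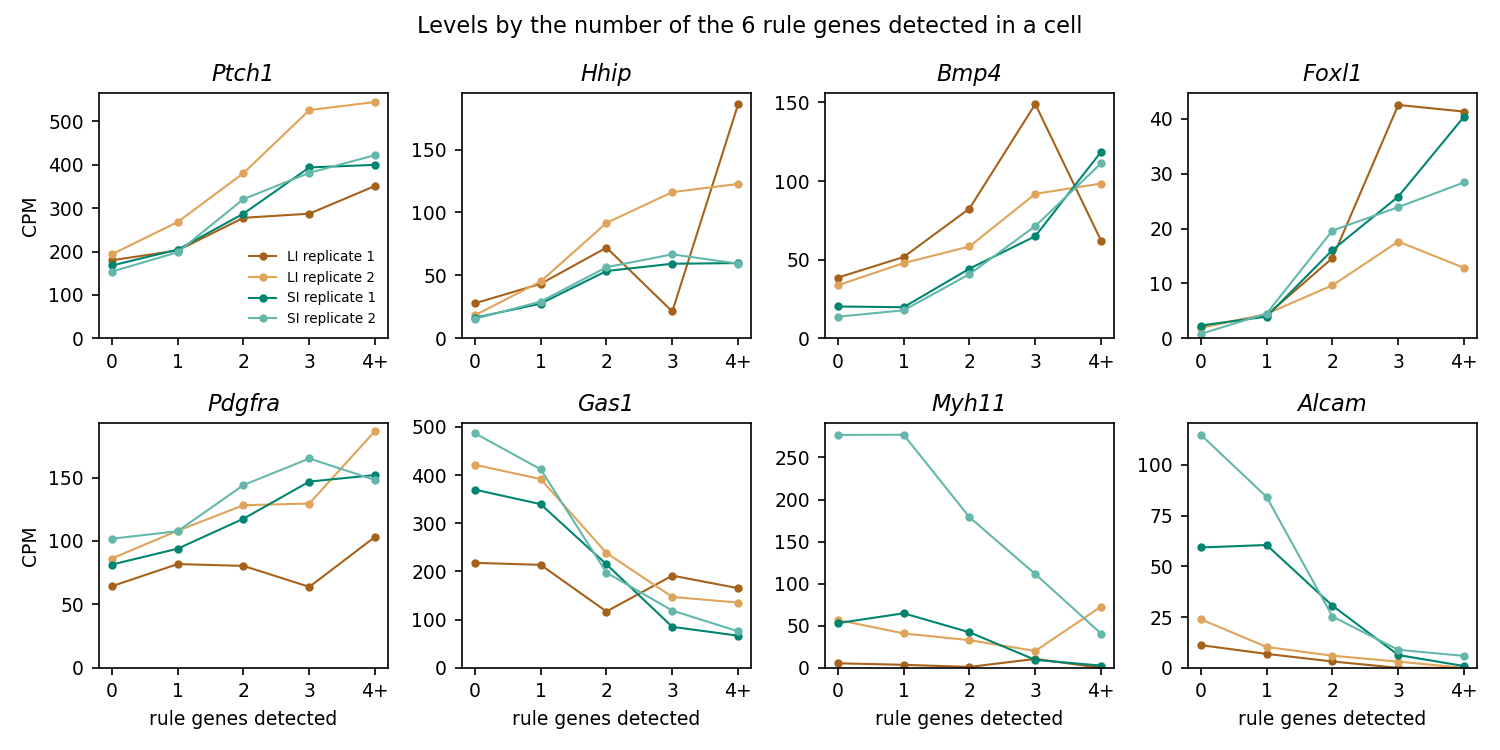
Level of selected genes (y axis, CPM, linear from 0) against the number of the 6 selecting genes detected in a cell (x axis), 1 line for each library. Ptch1 rises at every step in 4 of 4 libraries and Gas1 falls at every step in 3.

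Of the kept LI cells, members made up 0.357% in replicate 1 (exact 95% binomial interval 0.227 to 0.536) and 4.10% in replicate 2 (3.55 to 4.70). Of the kept SI cells they made up 4.25% in replicate 1 (3.72 to 4.82) and 6.81% in replicate 2 (6.21 to 7.44). The means were 5.53% ± 1.81 (SD, n = 2) in SI and 2.23% ± 2.64 (SD, n = 2) in LI. Both SI libraries lay above both LI libraries, by 3.30 percentage points on average, but with 2 libraries against 2 the exact permutation test (2-sided) gave p = 0.33, the smallest it can give. Without LI replicate 1 the gap was 1.43 points. After every cell was thinned to 3000 UMIs and shallower cells were left out, 7 of 5430, 22 of 4583, 34 of 5287 and 81 of 6478 cells met the rule in the same order of libraries, that is 0.129%, 0.480%, 0.643% and 1.25%. The order of the libraries was the same at equal depth, and the gap of 0.642 points was again not separable from the spread of 2 libraries a region. When cells that held Top2a or Mki67 were left out of members and kept cells alike, the shares were 0.343%, 3.07%, 2.02% and 3.29%, so that the regions overlapped and the gap was 0.948 points (exact permutation p = 0.667). When cells that held 3 or more SMC markers were left out in the same way, the gap was 2.48 points without overlap (exact permutation p = 0.333).

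FB markers were found in the members of every library. Summed over 8 FB markers (Pdgfra, Col1a1, Col1a2, Col3a1, Col6a1, Dcn, Lum and Pdpn), members reached 1271, 2091, 1171 and 1960 CPM, and reference cells 917, 1393, 956 and 1389. Each library had the higher sum in members, although the ranges of the 2 groups overlapped. Of the 8 genes tested one by one, 5 had an adjusted p under 0.05 on the higher side and 1 on the lower. The lower one was Col1a1, the main chain of collagen I, at 70.2, 130, 118 and 270 CPM in members against 83.0, 191, 164 and 291 in reference cells (log2 fold change -0.34, adjusted p = 0.027), named after its values were seen. In 3 alternatives 0 of the 8 had an adjusted p under 0.05 on the lower side. These were without SI replicate 1, against reference cells drawn to the depth of the members, and with the members selected on thinned cells. Pdgfra, the receptor that marks intestinal FB, stood at 77.2, 147, 149 and 156 CPM in members and at 64.3, 86.2, 81.4 and 102 in reference cells (log2 fold change 0.74, SE 0.09, adjusted p = 8.4e-05, higher in 4 of 4 libraries). SMC markers were present in members as well, at 1039, 1429, 1014 and 2377 CPM summed over 10 genes. Reference cells had 896, 2005, 2198 and 4907 CPM, so that members were higher in LI replicate 1 and lower in the other libraries. UMIs of 3 or more SMC markers were found in 43.5%, 69.9%, 58.8% and 84.9% of members and in 25.9%, 54.9%, 65.9% and 70.6% of reference cells. In reference cells drawn to the depth of the members the shares were 27.7%, 61.4%, 68.9% and 76.5%, so that members were higher in the same 3 of 4 libraries. Mesothelial markers summed to 4.2 to 63.2 CPM in members against 28.9 to 159 in reference cells. Msln, Krt7, Lrrn4 and Muc16 were at 0 in the members of every library, and Msln was at 0 in the reference cells of every library as well. Epithelial markers summed to 3.1 to 14 CPM against 7.98 to 15.7 in reference cells, with Cdh1, Cldn6, Krt20 and Shh at 0 in members. Immune markers summed to at most 0.548 CPM against at most 1.31. Ptprc, Tyrobp, Cd52 and Csf1r were at 0 in members, and Ptprc was at 0 in reference cells too. Endothelial markers summed to 0 to 18.3 CPM against 14.9 to 20.6. Of 4 endothelial genes tested, 1, Emcn, was called higher (log2 fold change 2.81) and 1 lower, and the call for Emcn was not kept under every alternative. Neural markers summed to 25.6 to 33.8 CPM in 3 libraries and to 1229 in LI replicate 1, where the 2 members named above held nearly all of them. Reference cells had 112 to 159 CPM of neural markers.

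Members and reference cells were compared on UMIs summed for each library, with edgeR's quasi-likelihood test and the library as a block, so that cells were not taken as replicates. The p-values are adjusted by Benjamini-Hochberg over all genes tested, of which the 6 selecting genes were then set aside, so that the counts of this comparison are over the other 13208. A call needed an adjusted p under 0.05 and an absolute log2 fold change over 1. By this rule 203 genes (1.54%) were higher in members and 541 (4.10%) lower, and the median over all genes was -0.02 on the log2 scale. These 2 shares are the background for the called genes of each list below. The number called rested on the libraries used, and was 1011 in all without LI replicate 2, 501 without SI replicate 1 and 452 without SI replicate 2. It was 759 without LI replicate 1. In bulk sums of this kind, more transcript per cell and more cells with the transcript cannot be told apart.

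**Figure D3:**
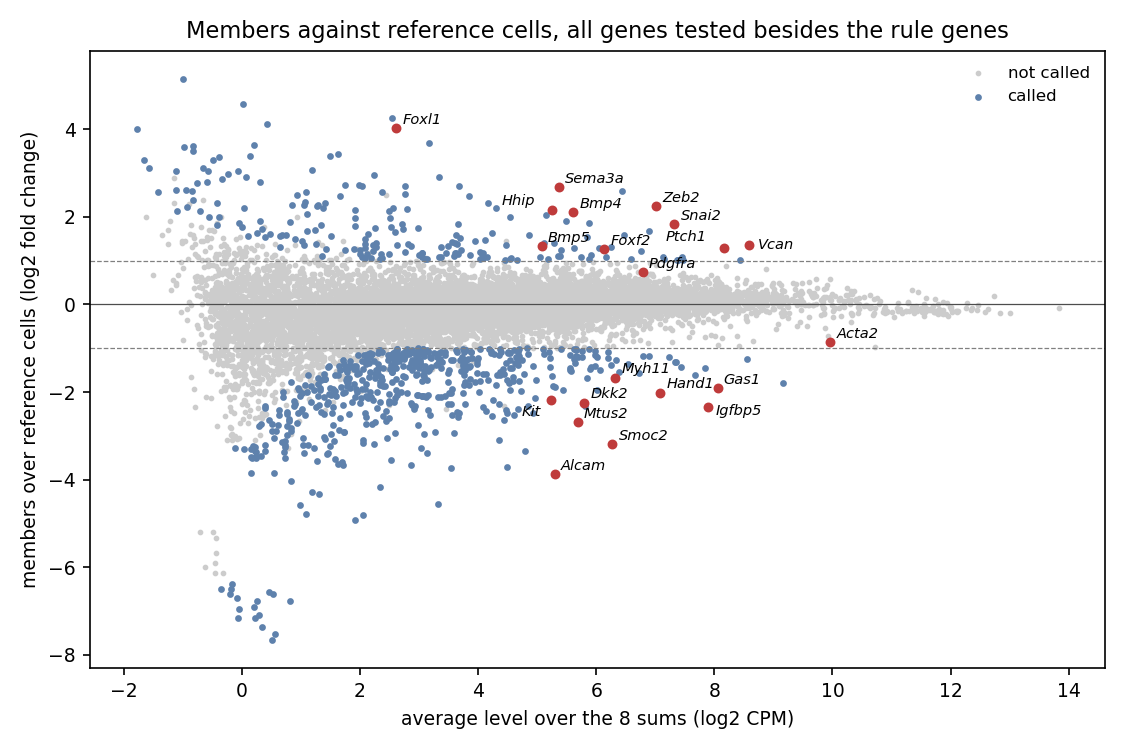
Log2 fold change of members over reference cells (y axis) against average level (x axis, log2 CPM) for the 13208 genes tested, with called genes in blue and selected genes named in red, of which Pdgfra and Acta2 were not called. Dashed lines mark the fold required. More genes were called below 0 (541) than above it (203).

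Transcripts of hedgehog receptors split into a higher and a lower group. Of 6 receptors and modulators, 2 were called higher (all genes 1.54%) and 2 lower (all genes 4.10%), with a median of -0.39. Ptch1 stood at 309 and 532 CPM in the members of LI replicates 1 and 2 and at 396 and 403 CPM in those of SI replicates 1 and 2, against 180, 194, 168 and 154 in reference cells. Every library had the higher level in members and the groups did not overlap (log2 fold change 1.30, SE 0.10, adjusted p = 7.5e-07). Hhip encodes a membrane protein that binds hedgehog and takes it away from Ptch1. Its level was 77.2, 118, 59.5 and 62.8 CPM in members against 27.8, 18.2, 16.3 and 15.4 in reference cells (log2 fold change 2.17, SE 0.15, adjusted p = 2.1e-07). The lowest member library was above the highest reference library here too.

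The co-receptors that help hedgehog bind were lower. Gas1 stood at 183, 144, 77.4 and 96.2 CPM in members against 218, 422, 370 and 487 in reference cells (log2 fold change -1.90, SE 0.17, adjusted p = 4e-06). All member libraries were below all reference libraries. Cdon stood at 0, 23.9, 7.34 and 6.02 CPM against 25.5, 33.9, 22.3 and 30.8 (log2 fold change -1.45, SE 0.26, adjusted p = 0.0017), with LI replicate 2 inside the reference range. Boc, related to Cdon, had a log2 fold change of -0.83 (adjusted p = 0.023), which is short of the fold required. Smo, which carries the signal into the cell, stood at 84.3 to 109 CPM in members and 89.7 to 108 in reference cells, with a log2 fold change of 0.04 (SE 0.09, adjusted p = 0.85). The call for Cdon was lost without SI replicate 2, in a robust edgeR fit and with the members selected on thinned cells. Its log2 fold change remained negative in each.

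None of 5 hedgehog effectors was called when all cells were used. Gli1, which is both an effector and a target, stood at 21.1, 33.3, 31.2 and 30.5 CPM in members against 24.4, 15.9, 18.6 and 16.6 in reference cells, so that LI replicate 1 went the other way from the other 3 (log2 fold change 0.86, SE 0.14, adjusted p = 0.00087, under the fold required). Without that library it was 0.92. When cells with 3 or more SMC markers were left out of both groups, Gli1 was called, with a log2 fold change of 2.28 (adjusted p = 4e-05). Gli3, which acts mainly as a repressor, had a log2 fold change of -0.44 (adjusted p = 0.017), Gli2 0.10 (adjusted p = 0.79), Sufu, an inhibitor of the Gli proteins, -0.16 (adjusted p = 0.68) and Kif7, a ciliary kinesin of the pathway, 0.10 (adjusted p = 0.88). The ligands were all but absent, with 0 UMIs of Shh and Dhh and 1 UMI of Ihh in all members.

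Of 6 hedgehog targets of gut mesenchyme, 3 were called higher (all genes 1.54%) and 0 lower (all genes 4.10%), with a median of 0.87 against -0.02 over all genes. Foxl1, a forkhead factor of the mesenchyme beneath the epithelium, stood at 42.1, 16.2, 31.9 and 26.3 CPM in members against 2.10, 1.88, 2.32 and 0.798 in reference cells (log2 fold change 4.03, SE 0.31, adjusted p = 7.5e-07). It had the greatest fold of the hedgehog genes tested, and the groups did not overlap. Bmp4 stood at 119, 93.8, 87.3 and 92.4 CPM against 38.6, 33.7, 20.2 and 13.7 (log2 fold change 2.10, SE 0.17, adjusted p = 1.8e-06). Foxf2, a forkhead factor of gut mesenchyme, stood at 49.2, 116, 121 and 110 CPM against 34.3, 47.9, 52.5 and 42.6 (log2 fold change 1.27, SE 0.10, adjusted p = 9.1e-07), and the members of LI replicate 1 lay inside the reference range. Its relative Foxf1 was higher in all 4 libraries by less than the fold required (log2 fold change 0.48, SE 0.07, adjusted p = 0.00053). Hsd11b2, which inactivates glucocorticoids, and the homeobox gene Nkx2-3 had log2 fold changes of -0.25 (adjusted p = 0.33) and 0.33 (adjusted p = 0.18).

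**Figure D4:**
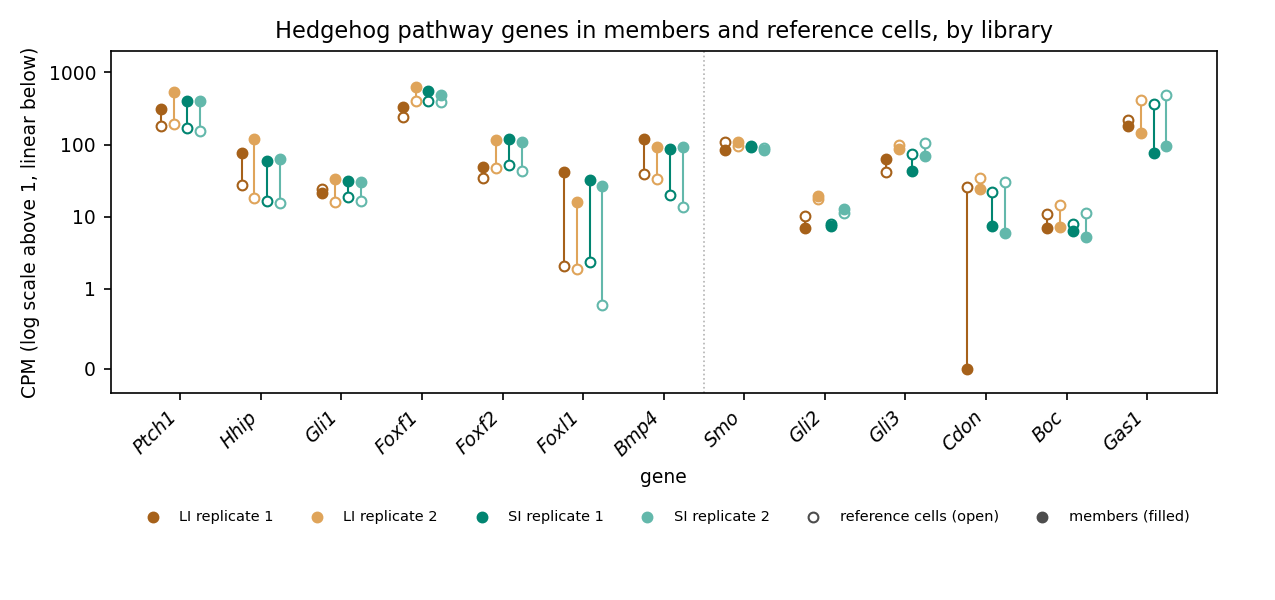
Level (y axis, CPM, log scale above 1 and linear below) of hedgehog pathway genes in members and in reference cells, 1 point for each library. Ptch1, Hhip, Foxl1 and Bmp4 lie higher in members in all 4 libraries without overlap, while Gas1 lies lower.

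The 5 hedgehog genes called higher (Ptch1, Hhip, Foxf2, Foxl1 and Bmp4) remained called when cells with 3 or more SMC markers were left out, when cells with Top2a or Mki67 were left out, when reference cells were drawn to the depth of the members and when any 1 library was left out. Selecting the members on cells thinned to 3000 UMIs left far fewer of them, and Foxf2 and Foxl1 were then no longer called. Within the members, Adamdec1 did not set Hhip and Bmp4 apart in 1 direction. Foxf2 was higher with Adamdec1, at 126 against 113 CPM in LI replicate 2, 147 against 119 in SI replicate 1 and 112 against 108 in SI replicate 2. Foxl1 was lower with it in the same libraries, at 11.3 against 17.7, 23.5 against 32.5 and 23.8 against 28.5 CPM, on 6, 4 and 61 UMIs with Adamdec1. LI replicate 1 had only 2 members with Adamdec1. In SI replicate 2, the 206 members with Adamdec1 and the 243 without it both had 403 CPM of Ptch1, while Hhip stood at 51.8 CPM with Adamdec1 and 72.5 without, and Bmp4 at 110 and 76.6. In LI replicate 2, the 46 members with Adamdec1 had 485 CPM of Ptch1 against 546 in the 150 without, while Hhip was 84.5 against 128 and Bmp4 63.9 against 103. In SI replicate 1, the 18 members with Adamdec1 had 352 CPM of Ptch1 against 399 in the 210 without, while Hhip was 99.8 against 56.8 and Bmp4 123 against 84.9. Acta2, a contractile actin, was lower with Adamdec1 than without in SI replicate 1, at 235 against 548 CPM, and in SI replicate 2, at 855 against 1559. It was higher in LI replicate 2, at 582 against 438. These sums have 1 value for each library and are given with no test.

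To show the regions that these targets are transcribed from, the 250 bases before the start of transcription are given for the 4 hedgehog genes called higher that have a RefSeq promoter window (build GRCm38.p6), 5′ to 3′ on the strand of the gene. Capitals mark GC boxes, the letters GGGCGG on either strand, which general promoter factors of the Sp family bind. The windows are Ptch1 at chr13:63565736-63565985 on the minus strand, Hhip at chr8:80058009-80058258 on the minus strand, Foxf2 at chr13:31625566-31625815 on the plus strand and Bmp4 at chr14:46390670-46390919 on the minus strand.
Ptch1: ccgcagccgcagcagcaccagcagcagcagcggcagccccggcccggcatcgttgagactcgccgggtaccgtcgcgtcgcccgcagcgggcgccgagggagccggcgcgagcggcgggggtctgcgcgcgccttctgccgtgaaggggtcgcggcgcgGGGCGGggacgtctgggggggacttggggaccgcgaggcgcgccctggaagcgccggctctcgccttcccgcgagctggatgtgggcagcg
Hhip: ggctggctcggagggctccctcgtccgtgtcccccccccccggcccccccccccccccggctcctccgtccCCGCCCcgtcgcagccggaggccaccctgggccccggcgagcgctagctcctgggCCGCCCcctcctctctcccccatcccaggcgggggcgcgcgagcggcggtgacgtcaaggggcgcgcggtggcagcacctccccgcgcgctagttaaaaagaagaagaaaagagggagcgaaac
Foxf2: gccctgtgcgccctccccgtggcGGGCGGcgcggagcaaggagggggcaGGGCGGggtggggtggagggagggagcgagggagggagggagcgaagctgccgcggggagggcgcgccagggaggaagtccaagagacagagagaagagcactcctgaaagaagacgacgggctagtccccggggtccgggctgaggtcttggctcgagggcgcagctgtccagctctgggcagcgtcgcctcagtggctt
Bmp4: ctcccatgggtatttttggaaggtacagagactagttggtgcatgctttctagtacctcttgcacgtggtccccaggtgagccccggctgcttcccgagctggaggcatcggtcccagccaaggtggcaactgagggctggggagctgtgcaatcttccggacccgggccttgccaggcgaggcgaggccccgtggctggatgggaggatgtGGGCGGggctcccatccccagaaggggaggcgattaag
All 4 were rich in G and C, with 78.4% for Ptch1, 76% for Hhip, 71.6% for Foxf2 and 63.2% for Bmp4 against a median of 52.4% over all windows, and held 41, 28, 21 and 11 CpG pairs against a median of 6. The consensus of the Gli factors, GACCACCCA, was searched on both strands of the full windows of 300 bases and was found in 83 of 32851 windows (0.253%) and in 0 of 142 windows of the genes named here, while GGGCGG was found in 35.7% of all windows and in 80 of the 142. The motifs do not overlap each other. That these letters are not in a window says nothing about the factor, since sites farther away were not searched.

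In the list of BMP ligands, which also holds activin subunits, 3 of 8 were called higher (all genes 1.54%) and 1 lower (all genes 4.10%), with a median of 1.15. Beside Bmp4, Bmp5 stood at 28.1, 76.3, 43.7 and 56.8 CPM in members against 20.9, 29.9, 19.3 and 20.7 in reference cells (log2 fold change 1.33, SE 0.12, adjusted p = 3.2e-06), with LI replicate 1 inside the reference range. The other one called higher was Inhba, a subunit of activins (1.68, adjusted p = 0.038), named after its values were seen. Its call was lost without SI replicate 1 (1.04, adjusted p = 0.41) and without SI replicate 2 (1.36, adjusted p = 0.14), and without cells that held Top2a or Mki67 it was -0.37 (adjusted p = 0.93). Gdf10 was the one that was lower, with a log2 fold change of -2.47 (adjusted p = 9.3e-05), a call lost with the members selected on thinned cells (adjusted p = 0.18). BMP antagonists, which bind these ligands outside the cell, had 0 of 9 called higher and 2 lower (22.2%, all genes 4.10%). Grem1 stood at 0, 3.41, 12.48 and 6.94 CPM in members against 5.83, 5.02, 35.5 and 33.3 in reference cells (log2 fold change -1.73, SE 0.23, adjusted p = 0.00017). Both SI libraries had less Grem1 in members, while the ranges overlapped because LI was low in both groups. In the members of LI replicate 1 a level of 3 UMIs would be 21.1 CPM, so that the 0 there does not show less Grem1. Without cells that held 3 or more SMC markers the call for Grem1 was lost (-1.56, adjusted p = 0.11). The other one, Fst, which encodes follistatin, had a log2 fold change of -1.25 (adjusted p = 0.032). That call was lost without SI replicate 1 (-0.91) and without SI replicate 2 (-0.77), DESeq2 did not make it, and without LI replicate 2 the value was -2.09. Of 13 BMP receptors and response genes, 0 were called higher and 1, Msx1, lower (7.69%, all genes 4.10%). Msx1 stood at 0 to 1.10 CPM in members, and its call was lost without SI replicate 1 (-1.97, adjusted p = 0.13).

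Other signalling lists held few called genes each, where of all genes 1.54% were called higher and 4.10% lower. Of 5 PDGF receptors and ligands, 0 passed the fold required, although Pdgfra, Pdgfrb (log2 fold change 0.69, adjusted p = 0.0031) and Pdgfa (0.54, adjusted p = 0.014) had an adjusted p under 0.05, which 6.64% of all genes had on the higher side and 7.63% on the lower. Of 9 WNT ligands and R-spondins, 0 were called higher and 2 lower, namely Rspo1 (log2 fold change -2.38, adjusted p = 2.7e-07) and Wnt4 (-2.09, adjusted p = 5.8e-05). Among 12 WNT antagonists and response genes, Dkk2 was called lower, at 7.02, 25.2, 15 and 13.7 CPM in members against 51.6, 99.2, 68.3 and 79.6 in reference cells (log2 fold change -2.24, SE 0.13, adjusted p = 4.6e-08), and Dkk3 higher (1.38, adjusted p = 0.0013). With the members selected on cells thinned to 3000 UMIs, the calls for Wnt4 (-1.71, adjusted p = 0.51) and Dkk3 (1.34, adjusted p = 0.49) were lost. Of 14 Notch genes other than Dll1, the 1 called was Dlk1, lower at -1.61 (adjusted p = 2.5e-06), while the Notch target Hes1 had a log2 fold change of 0.47 (adjusted p = 0.0016). Of 12 FGF genes, Fgf10, a growth factor for epithelium, was called higher (1.17, adjusted p = 0.029) and Fgf9 lower (-1.34, adjusted p = 0.016). Both calls rested on single libraries. The call for Fgf10 was lost without LI replicate 1 (1.23, adjusted p = 0.057), without SI replicate 1 (0.79) and without SI replicate 2 (0.90), while without LI replicate 2 the value was 1.82, and the call for Fgf9 was lost without SI replicate 1 (-1.13, adjusted p = 0.090). Retinoic acid genes had 0 of 14 called higher and 3 lower, Aldh1a1 (-1.24, adjusted p = 0.00023) among them.

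Outside the pathway lists, the genes with the greatest steady folds included the guidance cue gene Sema3a and the transcription factor genes Zeb2 and Snai2. Sema3a, a repellent for growing axons, stood at 84.3, 148, 63.1 and 77.4 CPM in members against 23.9, 19.5, 7.68 and 15.4 in reference cells (log2 fold change 2.67, SE 0.15, adjusted p = 3.8e-08). Its relative Sema3c, which is not among the steady folds, was also higher (2.69, adjusted p = 8.4e-06). With these, 2 of 22 axon guidance genes were called higher (9.09%, all genes 1.54%) and 7 lower (31.8%, all genes 4.10%). Slit2 (-1.98, adjusted p = 4.2e-05) and Efnb2 (-1.41, adjusted p = 3.4e-06) were among the latter. When the members were selected on cells thinned to 3000 UMIs, Sema3c was at 0.11 (adjusted p = 0.99). Zeb2 and Snai2 encode zinc-finger repressors known from epithelial-to-mesenchymal transition. Zeb2 stood at 162, 247, 171 and 307 CPM against 74.9, 60.7, 34.2 and 46.6 (log2 fold change 2.25, SE 0.16, adjusted p = 3.3e-07), and its exons overlap those of the antisense gene Zeb2os. Snai2 stood at 211, 398, 194 and 271 CPM against 72.0, 90.0, 70.6 and 70.8 (log2 fold change 1.84, SE 0.11, adjusted p = 7.8e-08). The groups did not overlap for either factor. Vcan, the proteoglycan versican, stood at 471 to 600 CPM against 202 to 259 (log2 fold change 1.36, SE 0.10, adjusted p = 7.5e-07). The peptide-amidating enzyme Pam (1.68), the secreted factor Angptl1 (1.86), Plekhh2 (1.90), Slitrk6 (1.54), the kinase gene Sgk1 (1.41) and the serum amyloid gene Saa2 (1.41) completed the set together with Rgs5 (2.04) and Gm13889 (2.59), whose exons overlap Gm27027. Rgs5, known from pericytes, stood at 7.02, 18.3, 60.6 and 142 CPM in members against 3.25, 8.56, 14.8 and 26.7, and the 6 pericyte markers together at 7.02, 72.5, 100.9 and 229.8 CPM against 36.3, 57.1, 48.7 and 89.0. The part of pericyte RNA in the Rgs5 difference was not tested.

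The genes with the greatest folds on the lower side included Alcam, an adhesion molecule, at 0, 2.13, 4.04 and 7.30 CPM in members against 11.2, 23.9, 59.3 and 115 in reference cells (log2 fold change -3.87, SE 0.16, adjusted p = 1.1e-09). No member library reached the lowest reference library. The 0 of LI replicate 1 adds nothing to this, since 3 UMIs in its members would be 21.1 CPM. Igfbp5, which binds insulin-like growth factors, stood at 91.3, 255, 12.1 and 26.1 CPM against 405, 627, 140 and 224 (log2 fold change -2.34, SE 0.25, adjusted p = 2.5e-05, and 0.083 in the robust fit), and the level depended on region in both groups. Hand1, a transcription factor of gut mesenchyme, stood at 63.2, 67.4, 53.2 and 18.8 CPM against 245, 183, 216 and 123 (log2 fold change -2.01, SE 0.15, adjusted p = 8.2e-07). Of 27 transcription factors of gut mesenchyme, 1 (Zeb2) was called higher and 8 lower, Foxp2 (-1.33, adjusted p = 8.4e-05, and 0.061 in the robust fit) included. The others of the 10 were Gas1 and Dkk2, given above, Smoc2 (-3.19), Mtus2 (-2.69), Cdc42ep3 (-2.32), the receptor gene Kit of interstitial cells of Cajal (-2.17) and the oxygen-sensing hydroxylase gene Egln3 (-1.96). All 4 markers of outer FB were lower (median -2.04), with Tac2 at -4.81 (adjusted p = 6.5e-05) on at most 1 UMI in any member library. In the robust fit 3 of the 4 were called, and with the members selected on thinned cells 1 was, when Tac2 (adjusted p = 0.41) was not. Of 10 SMC markers, 0 were called higher and 6 lower (60%, all genes 4.10%, median -1.17), Myh11 (-1.67, adjusted p = 0.00017) and Actg2 (-1.43, adjusted p = 7.7e-07) among them. The robust fit called 3 lower. Against reference cells drawn to the depth of the members 4 were called lower, and 1 had an adjusted p under 0.05 on the higher side. In the interaction of membership and region given below, 7 of the 10 had a lower difference in SI (all genes 1.77%, median -0.94). DESeq2 did not call Myh11. Leaving out cells with 3 or more SMC markers gives no test of this list, since those cells are chosen on its own genes, and the values were then of mixed sign (Actg2 0.68, Acta2 0.73, median 0.35 over the 8 genes left). Of 7 mesothelial markers, 4 were lower, Wt1 (-3.74, adjusted p = 4.3e-06, and 0.079 with the members selected on thinned cells) included, a comparison that shares with the selection the absence of Upk3b in both groups.

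Matrix genes and adult FB lists held called genes in both directions. Of 27 collagen and matrix genes, 1 (Vcan) was called higher (3.70%, all genes 1.54%) and 2 lower (7.41%, all genes 4.10%). Col6a1 (0.94, adjusted p = 3.9e-05), Col6a2 (0.96, adjusted p = 0.00047) and Col3a1 (0.50) were higher by less than the fold required. Of the 15 adult FB subset and support genes tested, 2 were called higher, Bmp5 and Pdpn (1.05, adjusted p = 0.020), and 5 lower, the chemokine gene Cxcl12 (-1.18, adjusted p = 1.4e-05) and Igfbp5 included. The call for Pdpn was lost without SI replicate 1 (0.61, adjusted p = 0.40) and without SI replicate 2 (0.96) and was not made by DESeq2, and that for Cxcl12 fell just short of the fold required without SI replicate 2. The study lists genes that separate adult PDGFRahi FB from Fgfr2+ FB in sorted cells of other samples. Of 283 tested genes of the PDGFRahi list, 26 were called higher in members (9.19%, all genes 1.54%) and 25 lower (8.83%, all genes 4.10%), with a median of 0.01. Of 308 of the Fgfr2+ list, 21 were higher (6.82%) and 38 lower (12.3%), with a median of -0.16. Bmp3 belongs to the former list and Col14a1 to the latter, and both were left out because they chose the members.

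Transcripts of mitosis genes were higher in members than in the shallower reference cells as a whole, and this was not seen against reference cells of like depth. All 18 mitosis genes had an adjusted p under 0.05 on the higher side (all genes 6.64%), none passed the fold required, and the median was 0.62, with Ube2c at 0.81 (adjusted p = 5.3e-06) and Kif11 at 0.75 (adjusted p = 4.4e-05). Against reference cells drawn to the depth of the members, 0 of 18 had an adjusted p under 0.05 and the median was 0.03. With the members selected on cells thinned to 3000 UMIs the count was again 0 of 18 (median -0.02), and without cells that held 3 or more SMC markers it was 2 (median 0.18). Of 18 DNA replication genes, 1, Mcm4 (0.62, adjusted p = 0.00025), had an adjusted p under 0.05 (median 0.17), and the count was 6 without LI replicate 1, 3 without LI replicate 2 and 7 without cells that held 3 or more neural markers. With the members kept as selected and each cell thinned to 3000 UMIs, the share with a UMI of a mitosis gene was 56.5%, 62.6%, 93.9% and 80.1% of members against 63.04%, 52.1%, 71.5% and 54.1% of reference cells, again with LI first and with the reference cells not matched for their depth before thinning. Members were higher in 3 of 4 libraries, by 13.1 ± 14.7 percentage points (SD, n = 4), and the exact sign-permutation test over libraries (2-sided) gave p = 0.25, where 2 of 16 sign assignments is the smallest share it can give. Without LI replicate 1, which went the other way at this depth, the mean was 19.6 points. At 2000 UMIs members were higher in 4 of 4 libraries, by 15.5 points, where the exact permutation test gave that smallest share. The DNA replication shares differed by 0.252 ± 2.47 points (SD, n = 4, exact permutation p = 0.875). Without thinning, members exceeded reference cells by 12.6 points for mitosis genes and 1.34 points for DNA replication genes.

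Members of SI and LI were compared with each other on 10304 genes, where an adjusted p under 0.05 was called. SI members were higher in 109 genes (1.06%) and LI members in 219 (2.13%). The count rested on single libraries, being 1046 without LI replicate 1, 387 without LI replicate 2, 37 without SI replicate 1 and 161 without SI replicate 2, in fits where the lone library of a region is assumed to vary like the others. The excess on the LI side rested on LI replicate 2, without which 237 genes were higher in SI members and 150 in LI members. Hox genes, which set position along the gut, made up the clearest group. All 9 tested Hox genes of groups 9 to 13 were higher in LI members, and of 21 genes of groups 1 to 8, 11 were higher in SI members and 3 in LI members. Hoxd10 stood at 119 and 146 CPM in LI members and at 0 and 0.365 in SI members (log2 fold change -8.77, adjusted p = 1.8e-07), and Hoxb4 at 21.1 and 17.5 against 160 and 118 (3.11, adjusted p = 5.7e-05). Pitx1, a homeobox gene whose exons overlap Gm28760, had 433 UMIs in LI members and 0 in SI members, at least 476-fold higher against a floor of 3 UMIs over the group. Reference cells were ordered likewise, with Hoxd10 at 104 and 110 CPM in LI and 0 and 1.84 in SI.

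Besides Hox genes, SI members carried more of a secreted WNT antagonist and of retinoic acid enzymes. Sfrp1 stood at 1080 and 761 CPM in SI members against 14 and 49.5 in LI members (log2 fold change 4.53, SE 0.32, adjusted p = 2.6e-06). Aldh1a2, which makes retinoic acid, stood at 529 and 343 CPM against 21.1 and 60.5 (3.15, SE 0.32, adjusted p = 8.3e-05). The SI and LI libraries did not overlap for either gene. Of 11 retinoic acid genes, 3 were higher in SI members, Rdh10 (1.55, adjusted p = 0.0020) and Aldh1a1 (3.14, adjusted p = 0.029) being the others, and 1, the binding protein gene Crabp2, in LI members (-3.26, adjusted p = 7.4e-05). Rdh10 and Crabp2 were named after their values were seen, and the call for Rdh10 was lost without LI replicate 2 (1.20) and without SI replicate 1 (1.61). The chemokine gene Cxcl10 (3.93, adjusted p = 0.011) rested mainly on SI replicate 2, at 93.5 CPM against 23.9 in SI replicate 1. Calls for Cxcl10 and Aldh1a1 were not made by DESeq2, and that for Aldh1a1 was lost without SI replicate 2 (1.87). LI members carried more Fst (-4.58, adjusted p = 9.8e-07), Fgf10 (-2.28, adjusted p = 0.0039) and Sema3c (-3.51, adjusted p = 4e-05), all 3 named after their values were seen. The call for Fgf10 was lost without LI replicate 2 (-2.40), without SI replicate 1 (-2.72) and without SI replicate 2 (-1.81). Of 19 axon guidance genes, 0 were higher in SI members and 7 in LI members. In the hedgehog lists the 1 gene called between regions was Hsd11b2, higher in LI members (-1.46, adjusted p = 0.022; -0.65 without LI replicate 2, where the call was lost, as it was without either SI library), and Ptch1 differed by -0.01 (SE 0.23, adjusted p = 0.99) and Bmp4 by 0.02 (SE 0.21, adjusted p = 0.98). Cdon (-1.52, adjusted p = 0.11), Nkx2-3 (0.84, adjusted p = 0.054), Foxl1 (0.77, adjusted p = 0.32), Hhip (-0.69, adjusted p = 0.12) and Gas1 (-0.65, adjusted p = 0.13) missed the threshold and were called without LI replicate 1.

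**Figure D5:**
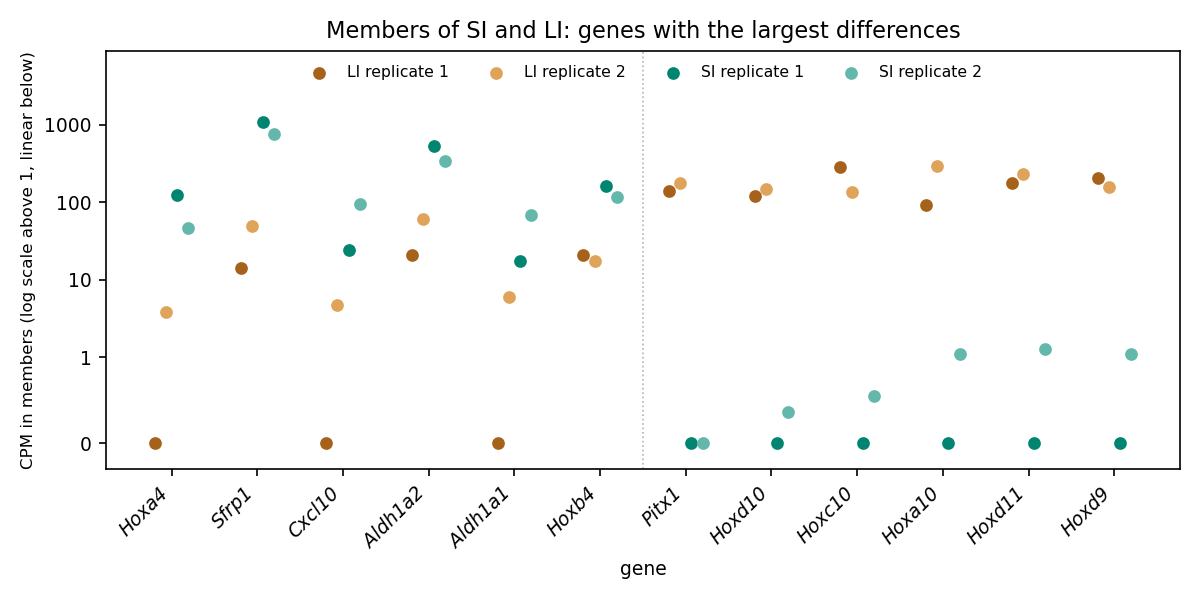
Level in members (y axis, CPM, log scale above 1 and linear below) of genes that differ between regions, 1 point for each SI and LI library. The posterior Hox genes and Pitx1 lie high in LI members and at or near 0 in SI members, while Sfrp1, Aldh1a2 and Hoxb4 lie higher in SI members.

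Whether the difference between members and reference cells itself varied with region was tested as an interaction of membership and region over 13208 genes. It was called (adjusted p under 0.05) with a higher difference in SI for 146 genes (1.11%) and a lower one for 234 (1.77%). The spread between libraries in this fit was estimated as nearly common to all genes, which makes edgeR's p-values very small, and DESeq2 called 53 genes in all. Itga4, the integrin a4 chain, was higher in members than in reference cells of LI, at 77.2 and 147 against 23.9 and 19.2 CPM, and lower in SI, at 1.10 and 2.01 against 8.40 and 8.47 (log2 difference -4.97, DESeq2 adjusted p = 7.2e-10). Itga4 thus lay on opposite sides of the reference cells in the 2 regions. Fst was level in LI, at 576 and 855 against 552 and 865 CPM, and lower in SI members, at 19.1 and 34.9 against 138 and 213 (-2.63, DESeq2 adjusted p = 6.3e-41). Sfrp1 was lower in members of LI and higher in members of SI (2.49, DESeq2 adjusted p = 0.0083). Sema6a, a semaphorin of the cell surface, was higher in LI members and lower in SI members (-2.12, DESeq2 adjusted p = 0.014), and the value without LI replicate 2 was -1.14 (edgeR adjusted p = 0.49). The interaction of Gal, the neuropeptide galanin (-8.48), came from 85 UMIs in the 2 members of LI replicate 1 with neural markers, and was -1.49 (adjusted p = 0.85) without that library. Among hedgehog genes, 5 were called by edgeR, and Nkx2-3 was the 1 that DESeq2 called as well (0.95, DESeq2 adjusted p = 0.0020), with 374 and 292 CPM in SI members against 226 and 187 in SI reference cells, and 204 and 208 against 302 and 230 in LI.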

How the data were processed

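The 4 libraries of E12.5 MSC (2 SI, 2 LI) were deposited by the authors as raw UMI counts per gene and cell barcode. The submitters' processing notes name Cell Ranger 3.1.0, Seurat 3 and the mm10 genome, and the study's methods state that debris and doublets were removed by gene number, counts and mitochondrial share at a later step. The deposited counts were used here unchanged.

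Barcodes with at least 1000 genes and under 10% mitochondrial UMIs were kept (6438, 4786, 5369 and 6595 in LI replicate 1, LI replicate 2, SI replicate 1 and SI replicate 2). No doublets were removed; as an alternative, the cells of highest Scrublet score (scanpy 1.11.5) at 0.8% per 1000 cells were left out, which held 0 to 29 members a library. The members and the gene lists were chosen with earlier results of these data known, and 2 genes of these lists are not reported here. UMIs were summed per library over members and over reference cells, scaled by TMM, filtered with filterByExpr and tested with edgeR 4.0.16 (quasi-likelihood, R 4.3.3), with Benjamini-Hochberg adjustment over all genes tested. DESeq2 1.42.0 was an alternative. CPM are UMIs of a gene per 1000000 UMIs of the same sum. Shares were compared with exact permutation tests over libraries (SciPy 1.17.1), and binomial intervals cover counting error only. Depth limits detection: 1 UMI is 7.02 CPM in the members of LI replicate 1. The tests were checked on simulated counts.

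Named genes were, for members against reference cells, the 15 highest and 10 lowest folds among called genes with average log2 CPM over 5 and 1 direction in all 4 libraries, all hedgehog genes and the 4 genes of smallest adjusted p in each other list. For SI against LI they were the 6 greatest folds in each direction among called genes of the same level whose libraries did not overlap and 3 genes of each Hox list, and for the interaction the 5 genes of smallest adjusted p. Alternatives were other scalings, tests and filters, leaving out each library, a stricter rule, thinned cells, depth-matched reference cells, and leaving out cells by doublet score, SMC markers or Top2a and Mki67. Leaving out cells with 3 or more neural markers and a robust edgeR fit were added after seeing the data. Promoter windows came from RefSeq tables of GRCm38.p6. They were matched by symbol for 115 of 157 genes, and gene overlaps came from GENCODE annotation of mm10.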

Additional observations from a re-analysis of the deposited data

Results flagged for a closer look

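Of the 380 genes whose difference between members and reference cells itself differed between SI and LI in the interaction test of edgeR (adjusted p under 0.05), 10 are given here. The 5 with the smallest adjusted p were Fst (log2 difference, SI minus LI, -2.63), Sfrp1 (2.49), Itga4 (-4.97), Gal (-8.48) and Sema6a (-2.12). DESeq2 called 4 of these 5 and not Gal, whose value came from 2 members of LI replicate 1. The other 5 were hedgehog genes, namely Cdon (-1.44), Gas1 (-0.88), Bmp4 (1.01), Hsd11b2 (-0.84) and Nkx2-3 (0.95), of which DESeq2 called Nkx2-3 (adjusted p = 0.0020). Bmp4 levels in members were close in both regions, at 87.3 to 119 CPM, while its reference levels were 38.6 and 33.7 CPM in LI and 20.2 and 13.7 in SI.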

How the results depend on the processing

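The counts of called genes moved with the processing. Against 744 called genes, DESeq2's test gave 432, cells thinned to 3000 UMIs 191, cells without Top2a or Mki67 435, and leaving out 1 library 452 to 1011. The 15 highest and 10 lowest steady folds named were called under every alternative, except Igfbp5 in the robust fit. Cdon was not called in the robust fit, after thinning and without SI replicate 2. The median of all genes moved from -0.02 to -0.14 with no filter and to -0.17 after thinning. Actg2 reversed to 0.68 without cells with 3 or more SMC markers, of which it is itself one, and Inhba to -0.37 without Top2a or Mki67. Against 328 genes called between SI and LI members, the values were 109 with DESeq2, 685 with no filter, 163 with at least 4 of the 6 genes, 14 after thinning (1636 genes tested), 186 without Top2a or Mki67 and 37 to 1046 without 1 library. With a replicate block it was 327 (135 higher in SI, 192 in LI). The replicate numbers are shared by 2 pairs with a correlation of deviations of 0.107 and are not said to mark a batch. Against 380 called interactions, the values were 53 with DESeq2, 121 with at least 4 of the 6 genes, 10 after thinning, 125 without cells with 3 or more SMC markers, 106 without Top2a or Mki67 and 50 to 455 without 1 library. Interactions that reversed and were called in at least 1 of the 2 fits compared were Cdon (-1.64 to 9.31 without 1 library, the latter without LI replicate 2, where its LI members had 0 UMIs, and 0.057 after thinning), Hsd11b2 (-0.96 to 0.22 without 1 library, the latter without LI replicate 2), Gal (7.35 after thinning) and Hhip (2.09 without cells with 3 or more SMC markers). Interactions that were not called changed sign as well, among them Sufu (10.28), Gli1 (1.14), Gli2 (0.73) and Hhip (0.60) without LI replicate 2. The member share differed by 0.642 points at 3000 UMIs, 0.206 at 2000 UMIs and 1.43 to 5.17 without 1 library. The mitosis share differed by 8.75 to 19.6 points without 1 library, and the DNA replication share by -0.886 to 1.00 points without 1 library and by 3.77 points at 2000 UMIs. The causes were not tested.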
